A study of Arabidopsis thaliana with 18 samples.

Results

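Cytochrome P450 genes were described in Arabidopsis thaliana Col-0 plants treated with salicylic acid (SA, a hormone of plant defence) or with a surfactant alone. They were taken as every probe set of the Affymetrix ATH1 array that names exactly 1 gene, where the symbol of that gene is CYP, then 2 or 3 digits, a letter and digits. This gave 22 probe sets for 22 genes, of 22810 probe sets in all, and no gene had more than 1 probe set. Of the 22, 18 belong to the subfamily CYP71B, and the others are CYP51G2, CYP78A9, CYP79A2 and CYP84A4. Membership asked for no level, and 13 of the 22 passed a filter on low signal and were tested, 11 of them CYP71B genes. The gene table used for names holds 225 symbols of this form, so the 22 are a part of the family, weighted towards CYP71B. P450 genes on probe sets that name several genes or that are unnamed here were not analysed here. The same holds for P450 genes that are given under a symbol of another form. Probe sets for cyclophilins, a class of protein-folding enzymes whose symbols also start with CYP, and for the pseudogene CYP71B30P were left out by the rule.

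The SA plants received SA at 0.30 mM together with silwet, a surfactant used to wet leaves, at 0.02%, and the silwet plants received 0.02% silwet alone, with 9 arrays for each treatment. Each array carries a number in its title, 10 to 18 for SA and 1 to 9 for silwet, and a replicate number from 1 to 3. Runs of 3 consecutive title numbers, each with replicate numbers 1, 2 and 3, are called here the first triplet (SA arrays 10 to 12, silwet arrays 1 to 3), the second triplet (SA arrays 13 to 15, silwet arrays 4 to 6) and the third triplet (SA arrays 16 to 18, silwet arrays 7 to 9). The labels used here do not say what sets the triplets apart, nor the tissue, the age of the plants or the time of harvest. Nothing in the labels states that replicates were grown separately, so every p-value below measures the spread between these arrays, which may be technical.

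Cytochrome P450s are haem enzymes that insert an oxygen atom into their substrates, with electrons passed on by NADPH-cytochrome P450 reductase. In plants they form a very large family that makes and breaks down hormones, sterols, pigments, lignin precursors and defence compounds. CYP71B is a large Arabidopsis subfamily with many tandem gene copies. It includes CYP71B15, also called PAD3, which completes the synthesis of the defence compound camalexin and is not among the 22. For most CYP71B members no substrate is given here. Among the other members, CYP84A4 acts in the synthesis of arabidopyrones from phenylpropanoid precursors, CYP78A9 promotes the growth of fruits and seeds, CYP79A2 converts phenylalanine to its aldoxime for benzylglucosinolate, and CYP51G2 is a relative of the sterol 14-alpha-demethylase gene CYP51G1 that the gene table lists as a transcribed pseudogene.

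The deposited arrays share a common mean, and their median signals lay between 29.7 and 36.3. Any 2 arrays correlated between 0.909 and 0.960 across probe sets. SA array 10 stood apart in its control probes: the log2 ratio of the 3′ to the 5′ actin probe set, which rises when RNA is degraded or labelling stops early, was 6.85 there and 0.149 to 1.51 on the other 17 arrays. The corresponding GAPDH ratio was 0.89 on SA array 10 and -0.16 to 0.14 on the other 17. First-triplet differences of the members between SA and silwet, and their called differences between SA triplets, are therefore given with and without SA array 10. The leaf gene RCA, which encodes Rubisco activase, was the only leaf marker of 6 that could be named, and its log2 signal averaged 11.35 on SA arrays and 11.41 on silwet arrays. Of 5 root markers, 3 could be named, and PYK10, which encodes a root beta-glucosidase, was the only one tested, at 6.54 on SA arrays and 6.62 on silwet arrays. None of 6 flower and seed markers could be named, so the tissue was not settled by markers.

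Signals below are the deposited MAS5 values on a linear scale, and log2 values were taken after raising values under the 20th percentile of an array to it. Signals of different probe sets depend on their probes and are not set against each other as transcript levels. The filter asked for a mean log2 signal over all 18 arrays of at least 4.23, the 40th percentile of all probe sets. CYP71B36 lay just inside it at a mean of 4.23 and CYP84A4 at 4.38, and CYP51G2 was the nearest below it at 2.90. CYP84A4 passed only through its first-triplet arrays, since its mean was above 4.23 in 2 of its 6 groups of arrays, so a difference between its triplets was bound to appear, and counts of members that varied between triplets are given without it. The 5 members with the highest means were CYP71B6 at 8.40, CYP71B26 at 8.05, CYP71B23 at 7.33, CYP71B28 at 6.82 and CYP71B34 at 6.30. CYP71B6, which oxidises indole-3-acetonitrile, the precursor of indole-3-carboxylic acid compounds, varied least over all 18 arrays among these 5, with signals of 277.2 to 422 on SA arrays and 264 to 392.2 on silwet arrays. Over the 9 silwet arrays the SD of the log2 signal was largest among the 13 tested for CYP84A4 at 1.04, CYP71B35 at 0.68 and CYP71B22 at 0.67. The SD of CYP84A4 includes the difference between its triplets, so nothing is drawn from its rank. CYP71B35 had a signal of 9.09 on silwet array 1, against 27.1 to 46.5 on the other silwet arrays.

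**Figure D1:**
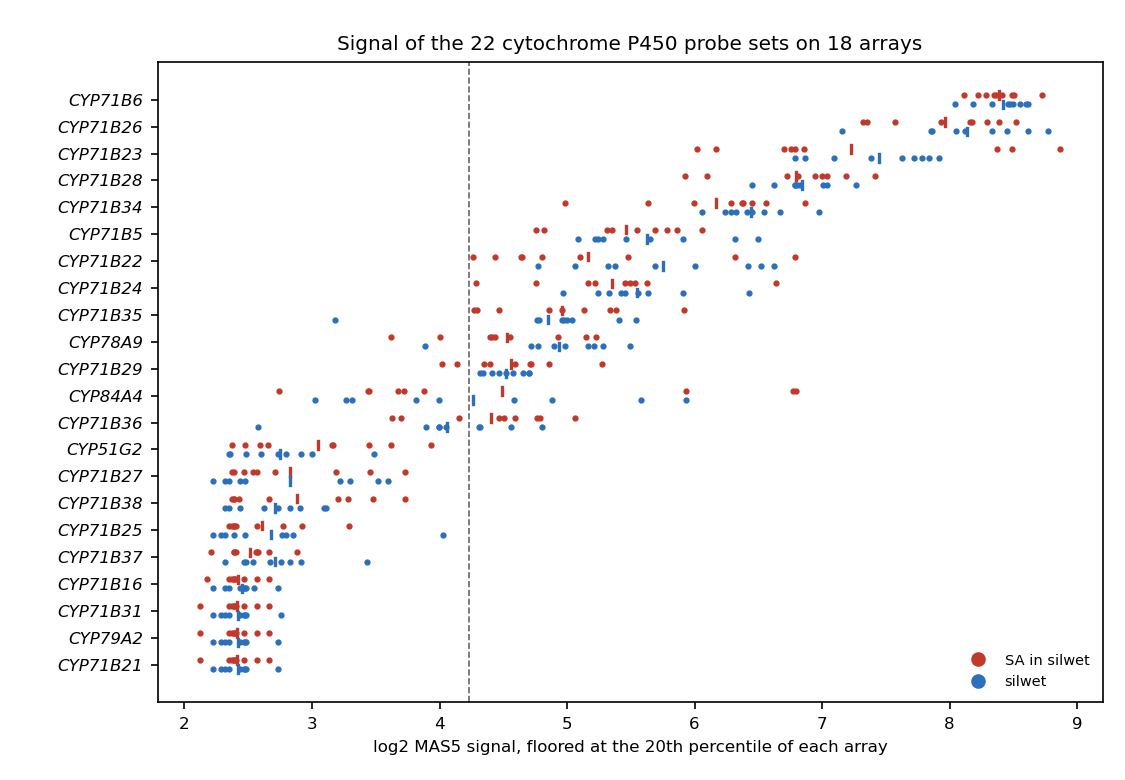
Log2 MAS5 signal (horizontal axis) of the 22 cytochrome P450 probe sets on 18 arrays, with each dot an array, each short bar the mean of 9 arrays, SA in red above silwet in blue, and the low-signal limit of 4.23 as a dashed line. CYP84A4 spreads most widely on both treatments, and the 9 lowest probe sets lie near the floor.

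In the first triplet CYP71B23 was higher and CYP71B34 lower with SA, and no other member passed the test. CYP71B23 had signals of 465, 332 and 359.8 on the SA arrays, against 229, 220.3 and 242 on the silwet arrays. All SA values lay above all silwet values, and SA array 10 was the highest. The log2 mean was 8.58 ± 0.26 on the SA arrays and 7.85 ± 0.07 on the silwet arrays (SD, n = 3 each), which is a difference of 0.73 (limma, standard error 0.18, adjusted p = 0.0137). Without SA array 10 the difference was 0.59 (standard error 0.19), and the call was lost (limma, adjusted p = 0.0600). No other of the 28 alternatives ended the call. In RNA of many cells, fewer cells of a type and less RNA per cell give the same lower signal and cannot be told apart, and likewise for a higher signal.

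CYP71B34 had signals of 63.7, 49.7 and 31.7 on the first-triplet SA arrays, against 77.9, 93.4 and 66.5 on the silwet arrays. The groups did not overlap, but SA array 10 and silwet array 3 lay close to each other. The log2 mean was 5.54 ± 0.51 on the SA arrays and 6.29 ± 0.25 on the silwet arrays (SD, n = 3 each), which is a difference of -0.76 (limma, standard error 0.24, adjusted p = 0.0499). This call lay at the threshold and was lost in 19 of 28 alternatives. It was lost without any 1 of 15 arrays, all but SA arrays 10 and 16 and silwet array 7, and without SA array 12 the difference was -0.48 (adjusted p = 0.219). When SA array 10 was left out, it was -0.99 (limma, standard error 0.25, adjusted p = 0.0199).

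The remaining 11 tested members did not pass in the first triplet. CYP84A4 had signals of 61.0, 109 and 111 on the SA arrays, against 29.4, 47.9 and 61.1 on the silwet arrays. SA array 10 and silwet array 3 were nearly equal, and the other SA arrays lay above every silwet array. Its log2 difference was 1.03 (limma, standard error 0.41, adjusted p = 0.106), and it was 1.32 without SA array 10 (adjusted p = 0.0686). Since the low-signal filter admitted CYP84A4 through these first-triplet values, its size is not ranked among the members. In the fit without the filter the adjusted p was 0.14. CYP78A9 had 12.3, 21.3 and 21.7 with SA, against 29.8, 38.8 and 27.3 with silwet. These values did not overlap either, and the log2 difference was -0.82 (limma, standard error 0.36, adjusted p = 0.152), and -0.56 without SA array 10 (adjusted p = 0.405). CYP71B28 had 123, 68.3 and 60.6 with SA, against 98.7, 110.3 and 87.6 with silwet, so that SA array 10 lay above the silwet arrays and the other 2 SA arrays below them. Its difference of -0.30 was not called, and without SA array 10 it was -0.61 and was called (limma, standard error 0.18, adjusted p = 0.0460). CYP71B6 differed by 0.25 (standard error 0.15, adjusted p = 0.303) and CYP71B26 by -0.27 (standard error 0.24, adjusted p = 0.503), and without SA array 10 by 0.17 and -0.24.

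The share of P450 members called in the first triplet was near that of the whole array. With SA, 1 of 13 members was higher, against 6.19% of the 13648 probe sets tested, and 1 of 13 was lower, against 6.12%. Without SA array 10, 0 of 13 were higher, against 4.65% of all probe sets, and 2 of 13 were lower (CYP71B28 and CYP71B34), against 5.04%. The SA and silwet arrays did not overlap in the first triplet for 1 member with SA above (CYP71B23; 12.7% of all probe sets) and for 2 with SA below (CYP71B34 and CYP78A9; 17.8%). The 13 differences ran from -0.82 to 1.03, with 6 positive and 7 negative, and their median was -0.01, against -0.05 over all probe sets tested. Leaving out SA array 10, they ran from -0.99 to 1.32, with 5 positive and 8 negative and a median of -0.20. The upper end of both ranges was CYP84A4, which the filter admitted through its first-triplet values. At an unadjusted p under 0.05 in limma's test, 2 members were higher, CYP71B23 and CYP84A4, and 2 lower, CYP71B34 and CYP78A9. Over all 13648 probe sets, 3716 passed that limit in either direction. Nothing is drawn from the place of CYP84A4 among them, for the same reason. The counts at this limit and those of arrays without overlap are given with SA array 10 only.

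**Figure D2:**
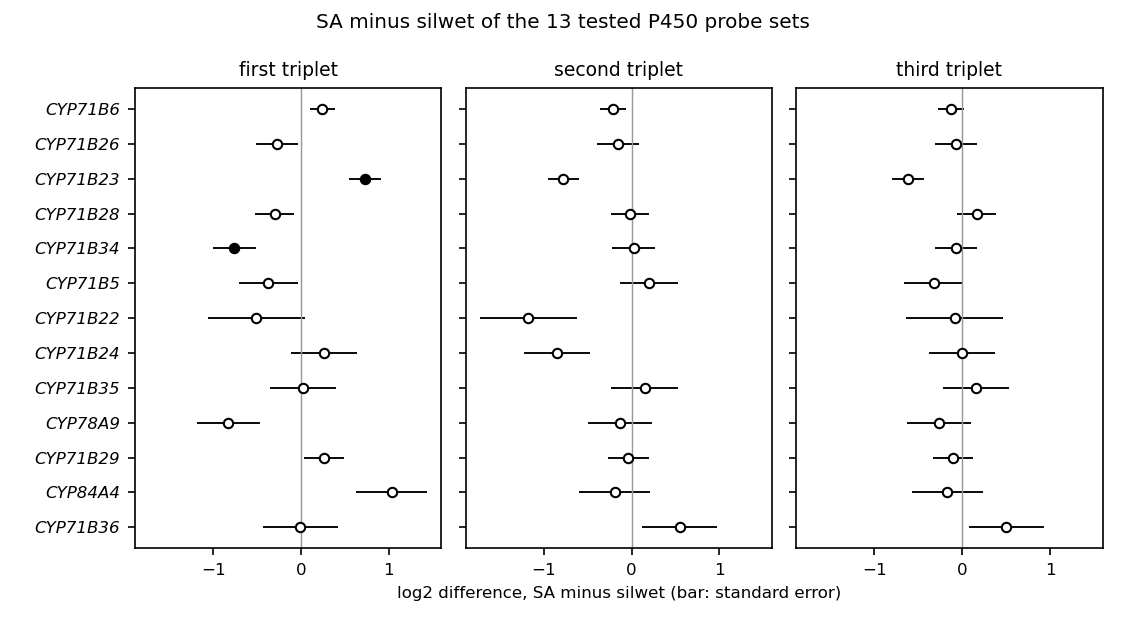
Log2 difference in signal, SA minus silwet (horizontal axis), for the 13 tested P450 probe sets in the first, the second and the third triplets, with standard errors as bars and filled points where the adjusted p was under 0.05. The filled points are CYP71B23 at 0.73 and CYP71B34 at -0.76, both in the first triplet, and CYP71B23 lies at -0.78 and -0.62 in the other triplets.

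In the second triplet no P450 member passed limma's test. The background was 0% of all probe sets higher and 0.3% lower. At an unadjusted p under 0.05, 0 members were higher and 2 lower, CYP71B23 and CYP71B24, against 782 of 13648 probe sets in either direction. CYP71B23 had 116, 108 and 110.4 on the SA arrays, against 211, 167 and 197 on the silwet arrays. Every SA value lay below every silwet value, the reverse of the first triplet. The log2 difference was -0.78 (limma, standard error 0.18, adjusted p = 0.0942), and it was called without SA array 17 (adjusted p = 0.0352) and with array weights (adjusted p = 0.0398). CYP71B22, the tandem neighbour of CYP71B23, had 24.9, 34.3 and 25.1 with SA, against 64.3, 91.9 and 41.6 with silwet. These did not overlap, and the difference was -1.17 (limma, standard error 0.56, adjusted p = 0.878). CYP71B24 differed by -0.85 (standard error 0.38, adjusted p = 0.827), and its groups overlapped.

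The SA and silwet arrays of the second triplet did not overlap for 1 member with SA above (CYP71B36; 5.06% of all probe sets) and for 3 with SA below (CYP71B6, CYP71B22 and CYP71B23; 6.89%). CYP71B36 had 27.1, 24.1 and 33.4 with SA, against 19.8, 14.9 and 23.6 with silwet. Its mean was barely inside the low-signal filter, and these SA arrays had the highest mean of its groups, at 4.80. Its place among the tested members thus leaned on them, and nothing is drawn from its separation. CYP71B6 had 339, 299 and 325.1 with SA, against 392.2, 374 and 351 with silwet. The gaps between these groups were small, and the log2 differences were 0.55 (standard error 0.43) for CYP71B36 and -0.21 (standard error 0.15) for CYP71B6 (limma, adjusted p = 1.00 for each). The median over the 13 members was -0.14, against 0.00 over all probe sets, with 4 positive and 9 negative.

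In the third triplet again no member passed limma's test, with a background of 0% of all probe sets higher and 0.0147% lower. At an unadjusted p under 0.05, 0 members were higher and 1 lower, against 634 of 13648 probe sets in either direction. CYP71B23 had 71.9, 104 and 64.9 on the SA arrays, against 110.2, 136 and 117 on the silwet arrays. The groups did not overlap, with the second SA array close to the lowest silwet array. The log2 difference was -0.62 (limma, standard error 0.18, adjusted p = 0.666), and it was called with array weights (adjusted p = 0.0384), which gave SA array 16 a weight of 5.14 and SA array 10 a weight of 0.38. CYP71B23 was the only member whose SA arrays all lay below the silwet arrays here (6.76% of all probe sets), and 0 members had all SA arrays above (4.37%). The median over the 13 members was -0.09, against -0.02 over all probe sets, with 3 positive and 10 negative.

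The response of CYP71B23 to SA differed between the triplets by a test of the difference itself. The interaction of treatment with triplet passed limma's F test for 1 of the 12 members other than CYP84A4 (8.36% of all probe sets), CYP71B23, with an adjusted p of 0.00183. The log2 difference between SA and silwet in the second triplet, less that in the first, was -1.51 (standard error 0.25, adjusted p = 0.00134), and that in the third, less that in the first, was -1.35 (standard error 0.25, adjusted p = 0.00426). CYP71B23 was the 1 member of these 12 called lower in each (5.6% and 4.33% of all probe sets), and 0 were called higher (4.51% and 3.62%). Paired by replicate number, the SA array was above its silwet array by 1.03, 0.59 and 0.57 in the first triplet and differed by -0.87, -0.62 and -0.84 in the second and by -0.62, -0.39 and -0.85 in the third. All 3 pairs of the first triplet thus lay on the opposite side from all 6 pairs of the other triplets. Without SA array 10 the second and the third triplets still differed from the first, by -1.36 (limma, adjusted p = 0.00367) and -1.20 (adjusted p = 0.0101). The F test kept its call in all 28 alternatives, with adjusted p from 0.000572 to 0.00654.

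Averaged over the triplets, these opposite differences left little. The mean log2 difference of CYP71B23 was -0.22 (limma, standard error 0.10, adjusted p = 0.993), and -0.27 without SA array 10. No member passed limma's test on the mean of the triplets, with a background of 0.0293% of all probe sets higher and 0% lower. At an unadjusted p under 0.05, 0 members were higher and 1 lower, against 669 of 13648 probe sets in either direction. The interaction F test gave an adjusted p of 0.279 for CYP71B34, 0.291 for CYP84A4 and 0.323 for CYP71B6, so no difference between triplets was shown for their SA responses. These values were 0.122, 0.198 and 0.533 without SA array 10.

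**Figure D3:**
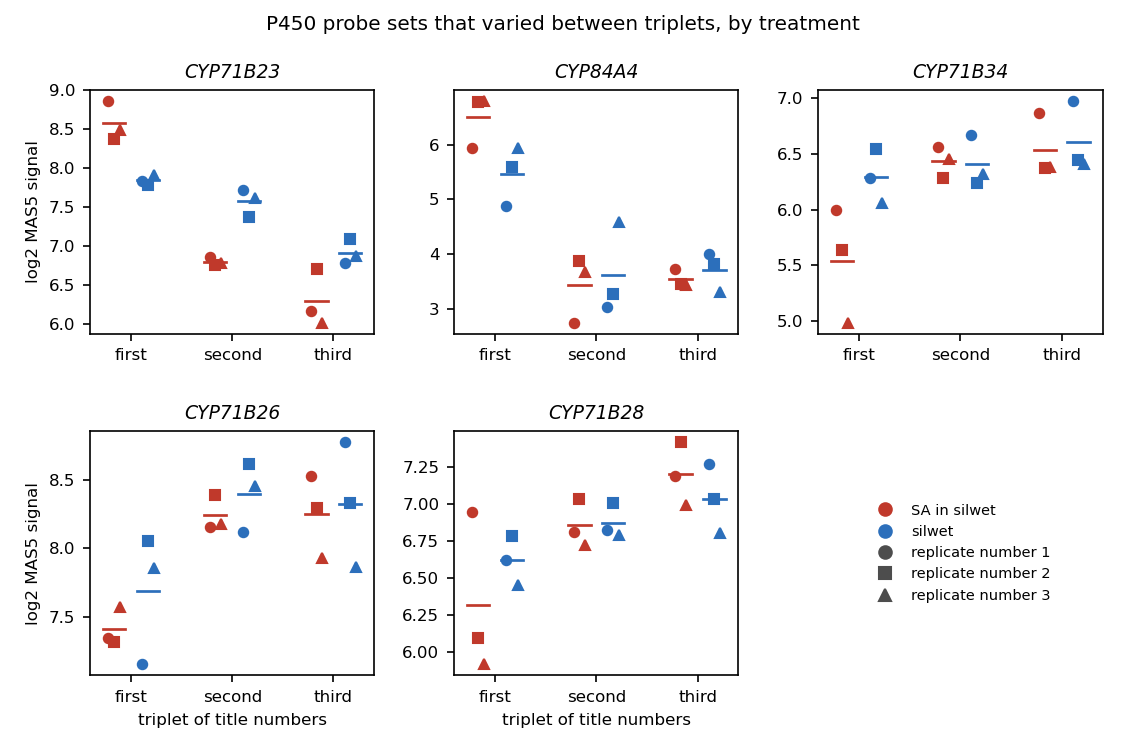
Log2 MAS5 signal (vertical axis) of 5 P450 probe sets by triplet (horizontal axis), with SA in red left of silwet in blue, symbols for replicate numbers and bars for means of 3 arrays. CYP71B23 lies above silwet in the first triplet and below it in the others, and CYP84A4 is highest in the first triplet under both treatments.

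With silwet alone, CYP71B23 varied between the triplets, 1 of the 12 members other than CYP84A4 (limma's F test, 1.14% of all probe sets). It was lower in the third silwet triplet than in the first (1 of 12, against 1.57% of all probe sets), and 0 members were higher (0.0513%). Between the second and the first, 0 members were lower (0.308%) and 0 higher (0.00733%). CYP71B23 had log2 means of 7.85 ± 0.07, 7.58 ± 0.18 and 6.92 ± 0.16 in the first, the second and the third silwet triplets (SD, n = 3 each). The third triplet differed from the first by -0.93 (limma, standard error 0.18, adjusted p = 0.00873), and the F test gave an adjusted p of 0.0264. The F test call was lost without silwet array 1, 3, 7 or 9, with adjusted p of 0.0652, 0.0959, 0.144 and 0.104 in that order.

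CYP84A4 had signals of 29.4, 47.9 and 61.1 in the first silwet triplet, 8.14, 9.60 and 24.0 in the second, and 15.9, 14.1 and 9.94 in the third. The first triplet lay above the others without overlap, and the second and the third overlapped. On the log2 scale the third triplet differed from the first by -1.76. Since the low-signal filter admitted CYP84A4 through these first-triplet values, the fit without the filter is its test, and there the F test gave an adjusted p of 0.0416. In the filtered fit the F test gave 0.0364, was 0.0564 with quantile normalization, and lost its call without any 1 of 11 arrays (SA arrays 11, 12, 17 and 18, and silwet arrays 2, 3, 4, 5, 7, 8 and 9), with adjusted p between 0.0511 and 0.256. CYP71B26 had 143, 265 and 232 in the first silwet triplet, 278, 391.6 and 350.0 in the second and 437, 322 and 232 in the third, and its F test gave an unadjusted p of 0.0178 and an adjusted p of 0.355.

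The same question was put to the SA arrays after the data had been seen, and 4 of the 12 members other than CYP84A4 varied between the SA triplets (limma's F test, 30.1% of all probe sets). The first SA triplet differed widely from the others across the array, so the members' share is read against that. CYP71B23 and CYP84A4 had their highest mean in the first SA triplet, while CYP71B34, CYP71B26 and CYP71B28 had their lowest mean there. CYP71B23 had log2 means of 8.58 ± 0.26, 6.80 ± 0.05 and 6.30 ± 0.36 in the first, the second and the third SA triplets (SD, n = 3 each). The second triplet differed from the first by -1.78 and the third by -2.28 (limma, standard error 0.18 each, adjusted p = 1.78e-06 and 1.26e-07). With SA, 1 of the 12 members was lower and 2 were higher in the second than in the first (14.7% and 15.9% of all probe sets), and 1 was lower and 3 were higher in the third than in the first (14.4% and 16.9%). Without SA array 10, CYP71B28 and CYP71B5 (1.08, limma, adjusted p = 0.0332) were also called higher in the second than in the first. The share over all probe sets without that array is not given for these comparisons. The differences of CYP71B23 were -1.63 and -2.13 without SA array 10.

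CYP84A4 had signals of 61.0, 109 and 111 in the first SA triplet, 6.70, 14.7 and 12.8 in the second, and 13.2, 10.9 and 10.9 in the third. Every first-triplet value was far above every later one, and the later ones overlapped. On the log2 scale the second triplet differed from the first by -3.07 and the third by -2.96. In the fit without the filter the F test over SA triplets had an adjusted p of 2.64e-05. The differences were -3.35 and -3.25 without SA array 10. The corresponding differences on silwet arrays were -1.84 and -1.76, so the first triplet was the high one under both treatments, and the interaction of treatment with triplet was not called.

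CYP71B34 had 63.7, 49.7 and 31.7 in the first SA triplet, 94.5, 78.0 and 87.5 in the second, and 117, 82.8 and 83.3 in the third. The first triplet lay below the others without overlap. It was higher by 0.90 in the second and by 1.00 in the third than in the first (limma, standard error 0.24, adjusted p = 0.00939 and 0.00456), and by 1.12 and 1.23 without SA array 10. The F test gave 0.00672 and was lost without SA array 12 (adjusted p = 0.0643). The silwet arrays of CYP71B34 differed by 0.12 and 0.32 between the same triplets, and their F test was not called (adjusted p = 0.818).

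CYP71B26 had 163, 159 and 191 in the first SA triplet, 285, 335 and 289.8 in the second, and 368, 313 and 244 in the third. It was higher by 0.83 in the second and by 0.83 in the third than in the first (limma, standard error 0.24, adjusted p = 0.0150 and 0.0142), and by 0.79 and 0.80 without SA array 10. The silwet arrays differed by 0.71 and 0.63, and those differences were not called. The F test over SA triplets gave 0.0172 and was lost without SA array 10 (adjusted p = 0.0644) or SA array 11 (adjusted p = 0.0824).

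CYP71B28 had 123, 68.3 and 60.6 in the first SA triplet, 112, 131 and 106 in the second, and 146, 171 and 128 in the third. It was higher by 0.88 in the third than in the first (limma, standard error 0.22, adjusted p = 0.00595), and the difference of 0.53 between the second and the first was not called. The F test gave 0.0160 and was lost without SA array 11, 12 or 17, with adjusted p of 0.0873, 0.0964 and 0.0521 in that order. SA array 10 was the highest of its triplet for CYP71B28. Without it the third triplet was higher by 1.19, and the second was higher by 0.85 and was called (limma, adjusted p = 0.00263). With the replicate number as a block the F test over SA triplets also called CYP71B5, with an adjusted p of 0.00723 for a fixed and 0.0493 for a random block, and CYP71B35 with a fixed block (adjusted p = 0.0477).

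Of the 18 CYP71B members, 14 lie on chromosome 3, and 11 of these fall in a run of 22 genes from CYP71B16 to CYP71B37. Of these 22 genes, 18 carry P450 symbols in the gene table. The run and all neighbours named here count only protein-coding genes and P450 pseudogenes, and genes of other types between them were left out. The order of genes was taken from assembly TAIR10.1, and no coordinates are given since no source used here names the build behind the array. In this run 7 members were tested. In the first triplet the log2 difference between SA and silwet was -0.51 for CYP71B22 and 0.73 for its direct neighbour CYP71B23, of which the second passed the test. It was 0.26 for CYP71B24 and -0.27 for CYP71B26. CYP71B34 at -0.76 is followed directly by CYP71B35 at 0.02 and CYP71B36 at -0.01. Without SA array 10 the differences were -0.48 for CYP71B22, 0.59 for CYP71B23, -0.16 for CYP71B24 (the opposite sign), -0.24 for CYP71B26, -0.99 for CYP71B34, 0.06 for CYP71B35 and -0.20 for CYP71B36. Both called members had direct neighbours that were not called in the same comparison, and the difference between neighbours was not tested. In the second triplet CYP71B22, CYP71B23 and CYP71B24 had differences of -1.17, -0.78 and -0.85, none of them called, and in the third triplet -0.09, -0.62 and 0.00. All 22 probe sets carry IDs without the suffix that marks probes shared between genes, but cross-hybridisation between these close copies was not tested here.

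**Figure D4:**
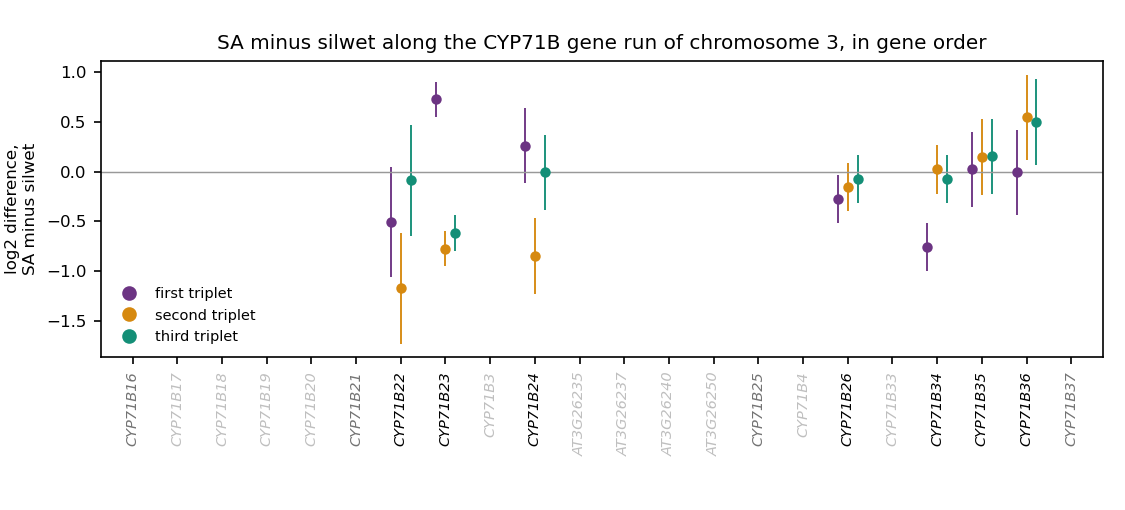
Log2 difference in signal, SA minus silwet (vertical axis, with standard errors), for the 7 tested P450 members along 22 genes of chromosome 3, coloured by triplet. The genes are protein-coding genes and P450 pseudogenes in gene order (horizontal axis, not to distance), with other gene types left out. CYP71B23 is at 0.73, -0.78 and -0.62, and CYP71B34 at -0.76, 0.02 and -0.07, while genes without points were not tested or have no probe set among the 22.

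The chromosome 1 members are neighbours too. CYP71B28 and CYP71B29 adjoin each other, and 1 gene lies between CYP71B27 and CYP71B28. CYP71B29 varied little, with signals of 16.2 to 38.8 on SA arrays and 19.9 to 26.1 on silwet arrays, and its highest value was on SA array 10. Its differences between SA and silwet were 0.26, -0.04 and -0.11 in the first, the second and the third triplets, none called, and the first was 0.04 without SA array 10. CYP71B35 had signals of 19.3 to 60.5 on SA arrays and 9.09 to 46.5 on silwet arrays. Its differences between SA and silwet were 0.02, 0.15 and 0.16, none called.

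The replicate number moved 2 of 13 members (limma's F test, 8.54% of all probe sets), CYP71B5 and CYP71B24. CYP71B5 had 46.8, 66.5 and 55.2 on the SA arrays of replicate number 1 in the first, the second and the third triplets, 27.0, 51.5 and 40.9 on those of number 2, and 28.3, 58.0 and 39.7 on those of number 3. On silwet arrays it had 60.03, 90.4 and 79.6 for number 1, 34.0, 37.3 and 50.3 for number 2, and 38.0, 38.8 and 44.1 for number 3. Number 1 was the highest in all 6 triplets of the treatments. On the log2 scale number 2 lay below number 1 by a difference of -0.73, and number 3 by -0.69 (F test, adjusted p = 0.00714). The difference between SA and silwet was -0.37, 0.20 and -0.33 in the first, the second and the third triplets and was not called, and the first was -0.63 without SA array 10. The F test between replicate numbers gave 0.0138 without that array.

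CYP71B24 was highest on number 1 in 5 of 6 triplets. It had 99.6, 49.4 and 45.0 on the SA arrays of number 1, 37.3, 35.8 and 43.9 on those of number 2, and 46.4, 19.5 and 27.0 on those of number 3. On silwet arrays it had 60.2, 86.04 and 40.2 for number 1, 43.8, 47.0 and 42.8 for number 2, and 37.9, 49.8 and 31.3 for number 3. The log2 differences from number 1 were -0.53 for number 2 and -0.83 for number 3 (F test, adjusted p = 0.0254). The F test gave 0.0469 without SA array 10, and the call was lost without SA array 13 (adjusted p = 0.0539) or silwet array 4 (adjusted p = 0.0714). What the replicate numbers stand for is not given in the labels used here.

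**Figure D5:**
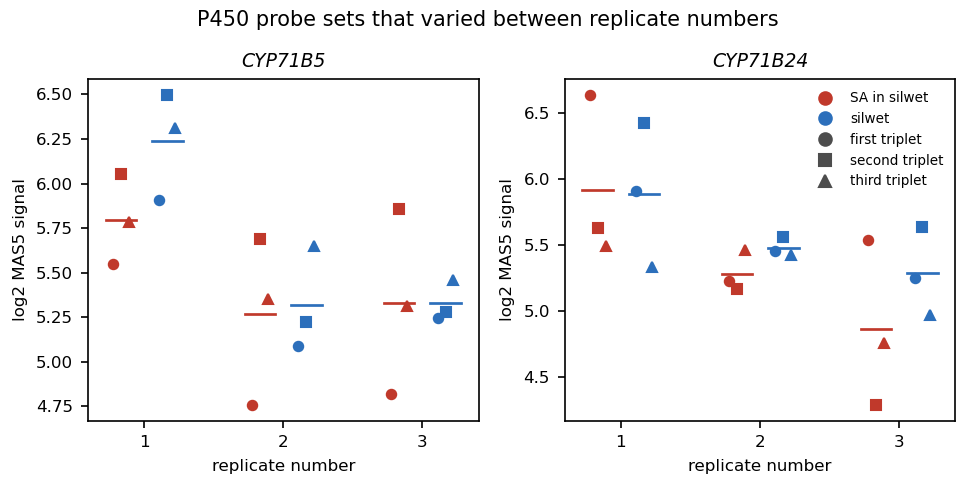
Log2 MAS5 signal (vertical axis) of CYP71B5 and CYP71B24 by replicate number (horizontal axis), with SA in red left of silwet in blue, symbols for triplets and bars for means of 3 arrays. Number 1 has the highest mean of both genes on SA and on silwet arrays.

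The 9 members of low signal are CYP51G2, CYP79A2 and the CYP71B genes CYP71B16, CYP71B21, CYP71B25, CYP71B27, CYP71B31, CYP71B37 and CYP71B38. CYP71B31, an enzyme that oxidises linalool in flowers, was at the floor on 17 of 18 arrays, CYP71B16 on 16, and CYP79A2 and CYP71B21 on all 18. At this signal no difference could be measured for them, and that does not show that the transcripts were absent. With no filter, 0 of these 9 were called in any of the 3 comparisons of SA with silwet within a triplet, in the interaction, or between silwet triplets or replicate numbers (limma over 22746 probe sets). CYP51G2 had 10.9, 12.3 and 15.3 on the third-triplet SA arrays, against 7.55, 1.37 and 5.02 on the silwet arrays. The groups did not overlap, but silwet arrays 8 and 9 were below the floor and were raised to it. The difference was 1.09 (limma, standard error 0.27, adjusted p = 0.419).

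Most P450 genes of known pathways were not found by their CYP symbols on the probe sets that name 1 gene. The P450 lists were matched by these symbols only. A P450 gene that the annotation gives under another symbol therefore counts as not named here, and it may still have a probe set. Of 15 lists of P450 genes by role, 7 had a single named member and the other 8 had none. Of the 7, only CYP71B6 (indole and camalexin pathway, 1 of 7 genes), CYP84A4 (phenylpropanoids, 1 of 7), CYP78A9 (organ growth, 1 of 6) and CYP71B23 (stress response, 1 of 12) were tested. The glucosinolate, sterol and terpenoid lists had 1 of 11, 1 of 8 and 1 of 16 genes named, each of low signal, so none of these pathways can be described as a group. Among 12 redox partners and scaffolds of P450s, 1 was named and tested, AT3G02280, which encodes a diflavin reductase. It differed between SA and silwet by -0.19, -0.31 and -0.24 in the first, the second and the third triplets (limma, standard error 0.27 each, adjusted p = 0.688, 1.00 and 0.968), and no difference was called.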

How the data were processed

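Transcripts were measured on 18 arrays, 9 for each treatment. The deposited values are intensities on a linear scale, with a signal for each probe set. The submitters' processing notes name MAS5, with no version. The deposited intensities had a mean of 100.0 on every array without the highest and lowest 2%. All 18 columns were used, and no detection calls.

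Values under the 20th percentile of an array (signals of 4.36 to 6.66) were set to that percentile before log2 was taken, which understates the change of dim transcripts. After 64 control probe sets and those with a mean under the 40th percentile were left out, 13648 were fitted with limma 3.58.1 under R 4.3.3 (lmFit, then eBayes with its trend and robust options), with the 6 combinations of treatment and triplet as groups, Benjamini-Hochberg adjustment over all 13648 and a threshold of 0.05. Replicate numbers were tested by limma's F test with the number as a fixed term. Tables were handled in Python 3.11.15. On simulated data for the first-triplet comparison, 55 of 100 probe sets changed 2-fold, 96 of 100 changed 4-fold and 5 of 13448 unchanged ones were called. The simulated noise was independent between arrays, without the deviations that arrays of the same replicate number share. Far fewer probe sets were changed there than the 1680 called in that comparison, so these rates may not hold for the real arrays.

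Probe sets were named by the supplied platform annotation: 13513 name 1 gene, 503 several, and 8794 are unnamed here. Symbols were updated through a gene table of assembly TAIR10.1, which 13436 of the 13513 matched, all 22 members among them. The members, lists and comparisons were chosen with earlier results of these data known. Named are the members past a threshold, the 5 with the highest mean, the 3 with the largest spread on silwet arrays and those in a role list. Other members were added after their values were seen.

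Mean deviations from the group means of SA and silwet arrays with the same replicate number correlated at 0.60, 0.56 and 0.63, while arrays with different numbers gave -0.50 to -0.06. Deviations cancel within each group, so positive values for the same number force negative ones among different numbers. The negative values are therefore no separate evidence. The pairing by number was taken from these values, since the labels state none. The number of arrays limits the precision.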

Additional observations from a re-analysis of the deposited data

Results flagged for a closer look

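The difference in CYP71B23 signal between SA and silwet was not the same in the 3 triplets, by a test of the interaction itself (limma's F test, adjusted p = 0.00183). Its log2 difference was 0.73 in the first triplet, -0.78 in the second and -0.62 in the third, with SA above silwet on 3 of 3 pairs of arrays in the first triplet and below it on 6 of 6 pairs in the others. SA array 10, with the high actin 3′ to 5′ ratio, belongs to the first triplet, and without it the F test gave an adjusted p of 0.00654. What distinguishes the triplets was not given in the labels used here, and its part in the difference was not tested. Groups of 3 arrays are too small for a check of single outlying values.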

How the results depend on the processing

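Of 2835 alternative values for the 104 results on single members, 2777 kept their call, 44 lost it, 14 gained it and 0 changed sign while called. Higher in the first triplet, 1 member was called, and 2 with log2 of the value plus 16, where CYP84A4 was added (0.82, adjusted p = 0.0266). Lower there, 1 was called, and 0 with log2 of the value plus 16, with no filter, with median centring or with eBayes without trend and robust. Lower in the second and in the third triplet, 0 were called, and 1 in each with array weights. Between silwet triplets 2 were called with CYP84A4 counted, and 1 with the filter at the 60th percentile, which leaves 5 members and removes CYP84A4, or with quantile normalization. Between replicate numbers 2 were called, and 0 with that filter, which removes both, while array weights called 3. Leaving out each array in turn gave 0 to 1 higher and 0 to 2 lower in the first triplet, 0 to 1 lower in the second, 0 to 2 between silwet triplets, 1 to 3 between replicate numbers and 3 to 6 between SA triplets, where 5 were called with CYP84A4 counted. Without SA array 10 the first triplet had 0 higher and 2 lower. The 3 came without SA array 12. Between replicate numbers CYP78A9 was called without SA array 12 (adjusted p = 0.0324), and between SA triplets CYP71B22 without SA array 16 (0.0190), CYP71B29 without SA array 11 (0.0457) and CYP71B35 without silwet array 1 (0.0170). Except where an alternative removes a probe set or an array, the cause was not tested. The number called over all 13648 probe sets moved with the setting too. In the first triplet it was 845 higher and 835 lower in the main fit, and 634 and 688 without SA array 10. The counts of members under the alternatives are given without that background, so a change in them is not read as particular to P450 genes.

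With a replicate block, fixed or random, 1 member was called higher and 1 lower in the first triplet, and 0 in the second, the third and the mean. In the interaction 1 was called, and between silwet triplets 2 with CYP84A4 counted. The block changed no call other than those named for SA triplets. In the first triplet the adjusted p with a fixed and a random block was 0.0113 and 0.00771 for CYP71B23 and 0.0116 and 0.0183 for CYP71B34. Over all probe sets, either block called more of them higher and more of them lower in that triplet than the main fit did. Values at the floor limit what can be said of the 9 members of low signal.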
